A study of Mus musculus with 6 samples.

Results

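The genes described here are the cyclins, cyclin-dependent kinases (CDKs), CDK inhibitors, minichromosome maintenance (MCM) proteins and E2F transcription factors of mouse hippocampus. They were chosen by a rule on names that uses no measured value, though the families it covers were chosen with earlier results of these data known. The rule takes the protein-coding genes whose symbols begin with Ccna to Ccnl, Cdk, Cdkn1 or Cdkn2, Mcm or E2f followed by the number or letter of the family, and 44 of the 15388 genes in the table fit. The RefSeq annotation of the same genome build holds 58 protein-coding symbols of this form. The other 14 (Ccna1, Ccna2, Ccnb1, Ccnb1ip1, Ccnb2, Ccnb3, Cdk1, Cdk15, Cdkn2a, Cdkn2b, E2f2, E2f7, E2f8 and Mcm10) were not analysed here. One of the 44, Mcm3ap, carries the MCM name only because its product binds MCM3. The 44 genes lie on 16 chromosomes.

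RNA came from hippocampi of Cx3cr1-cre/ERT2+; NuTRAP+ mice, which carry 1 tamoxifen-inducible Cre allele under the Cx3cr1 promoter and 1 copy of the NuTRAP reporter, and which received tamoxifen on 5 consecutive days at about 3 months of age. In cells where Cre has acted, NuTRAP puts GFP on the ribosomes. All groups share the genotype and the tamoxifen, and they differ only in fraction: each homogenate of 3 animals (201, 207 and 208) gave 1 Input library from the whole supernatant and 1 Positive library from ribosomes captured with an antibody to GFP, 6 libraries in all. Cx3cr1 marks microglia, the resident macrophages of the brain, but its promoter is also active in macrophages at the borders of the brain and in blood monocytes. In this line the study waited 3 to 4 weeks after tamoxifen before taking brain tissue, so that labelled monocytes, which are short-lived, would be replaced. Border macrophages are not removed by this step.

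Progression through the cell cycle is driven by CDKs, which are active only when a cyclin is bound. D-type cyclins with CDK4 or CDK6, then E-type cyclins with CDK2, phosphorylate the retinoblastoma family of pocket proteins, which releases E2F factors to switch on genes of DNA replication, and the INK4 and CIP/KIP proteins hold these kinases back. MCM2 to MCM7 form the ring that is loaded at origins in G1 and unwinds DNA in S phase. Many members do other work: several CDKs and cyclins act in transcription and splicing, and CDK5 is best known from neurons that no longer divide. Microglia of the adult brain renew themselves slowly by division.

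The libraries held 14879734 to 17757918 reads. Levels are given as scaled reads, in which the size factor of the library has been divided out, and fold changes are Positive over Input. A gene was called higher or lower at an adjusted p under 0.05 in the unpaired edgeR quasi-likelihood test over 15344 genes, and errors of log2 fold changes are standard errors (SE, n = 3 per fraction). Cx3cr1 itself had 310.3, 323 and 276 scaled reads in the Input libraries of animals 201, 207 and 208 and 8097, 9840.4 and 6919.7 in the Positive libraries, a log2 fold change of 4.77 ± 0.14 (adjusted p = 1.94e-10). All 8 microglial markers were higher in Positive, with a median log2 fold change of 4.63, and their summed level was 4376 to 4753 in Input and 86487 to 127559 in Positive. All 6 border macrophage markers were higher too (summed level 184 to 236 in Input and 2539.6 to 5566 in Positive), of which Lyve1 and Pf4 passed the filter on low reads only through the Positive fraction, and so were all 8 endothelial markers (median log2 fold change 1.94, summed level 1781 to 2168 in Input and 4634 to 9442 in Positive, lowest in animal 208).

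RNA of other cells was still present in the Positive fraction. The summed level of 8 neuronal markers was 131856 to 152464 in Input and 150392 to 181252 in Positive, and 3 of them were called higher. Of the 8 astrocyte markers 1 was higher and 2 were lower, with a median log2 fold change of -0.295 and a summed level of 61417 to 65838 in Input and 58971 to 70710.4 in Positive. Slc1a2 was the only one with a log2 fold change above 0 (0.29), and it made up much of that sum, with 29681 to 32654 scaled reads in Input and 33732 to 42550.4 in Positive. All 7 oligodendrocyte and all 6 oligodendrocyte precursor markers were lower, with median log2 fold changes of -2.44 and -1.45 and summed levels of 48711 to 55420.3 against 11064 to 14549 and of 4769.9 to 5009 against 1578 to 2399. Among 6 markers of newborn neurons and progenitors, cells that divide or have just divided in the dentate gyrus, 4 were lower and 1, Nes, was higher (summed level 2165 to 2312 against 1871 to 1974). Calb2, which was lower, made up much of that sum, with 884 to 1080 scaled reads in Input and 663 to 718 in Positive. Whether the reads of these markers came from newborn cells was not tested. None of 7 mural and 4 ependymal markers was called by edgeR or limma (1 mural marker higher and 2 ependymal markers lower at an unadjusted p under 0.05, and those 2 lower by DESeq2), with summed levels of 2755 to 2929 against 1891 to 3857 and of 445 to 635 against 178.5 to 504. No marker analysed was at 0 reads in any library, and 0 of 9 markers of neutrophils and lymphocytes were among the genes analysed. In bulk RNA a gene read in more cells and a gene read more strongly per cell cannot be told apart, and the part of these other cell types in the results that follow was not tested.

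All 44 genes passed the filter on low reads in both fractions, so none entered the test only through the fraction in which it was high. Of them, 14 were higher in Positive, 8 were lower and 22 did not pass the threshold. The 22 called genes are 50.0% of the 44, against 46.0% of all genes tested, the 14 higher genes 31.8% against 24.0%, and the 8 lower genes 18.2% against 22.0%. The share called among these families was therefore near that of all genes. The groups by role described below hold at most 7 genes each. Their counts are to be read beside the same 24.0% higher and 22.0% lower of all genes. The median log2 fold change of the 44 genes was 0.03, beside -0.01 for all genes tested. Its value within the 3 animals was 0.02, 0.01 and 0.11. Each of the 22 called genes moved in 1 direction in all 3 animals. Past a difference of 25% of the lower fraction, the smaller limit in the methods of the study, there were 21 called genes (47.7% against 39.8% of all genes). Past a fold change of 2, 6 genes were higher (Mcm3, Mcm5, Mcm2, Cdkn1a, Cdk2 and Ccnd1, 13.6% against 8.29% of all genes) and 0 were lower (against 4.48% of all genes), with edgeR, DESeq2 and limma alike. Ccnd1, Cdk2 and Cdkn1a lay near the 2-fold limit and fell below it under some alternative processing. Their lowest log2 fold changes there were 0.942, 0.952 and 0.984. Past 5-fold, the limit used in the study for microglial genes, there was 1, Mcm3 (2.27% against 3.75%). The highest values thus lay in the MCM ring, 1 D-type cyclin, 1 kinase and 1 inhibitor, and the 8 lower genes were Ccnl1, Ccnl2, Ccng1, Cdk8, Cdk16, Cdk10, Cdk5 and E2f6.

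**Figure D1:**
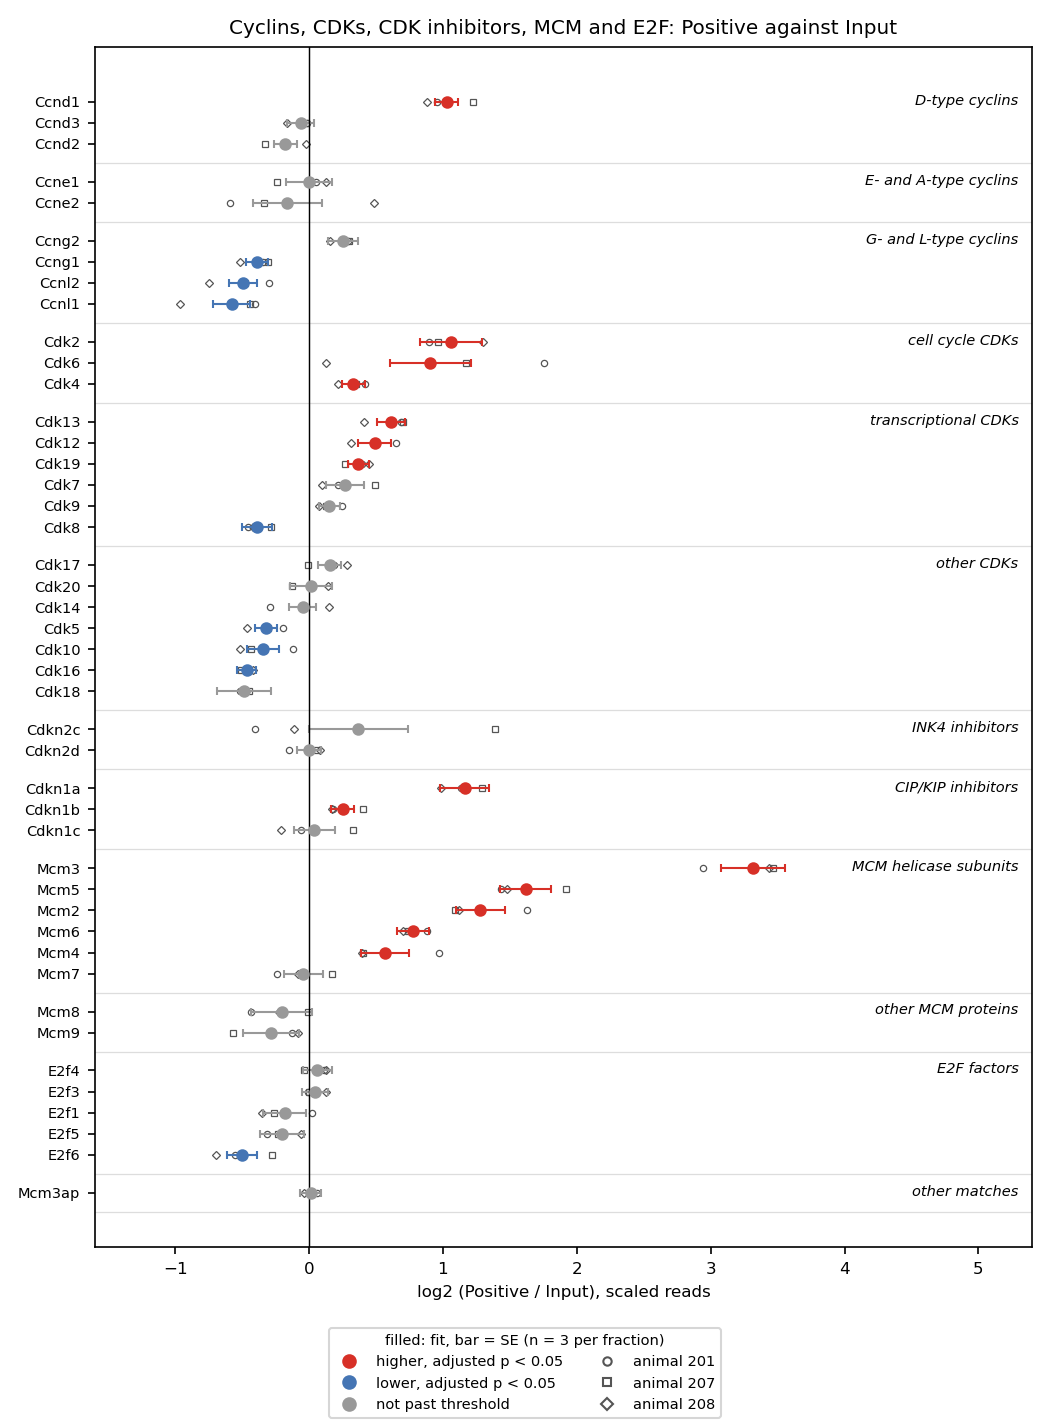
Log2 Positive over Input for each of the 44 genes, ordered by role, with the fitted value and its SE (filled circles) and the ratio of each animal (open symbols). The 6 genes past 2-fold are all to the right, with Mcm3 the farthest at 3.32, and the 8 called lower genes lie between -0.58 and -0.32.

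The MCM helicase gave the largest differences. Of its 6 subunits, 5 (Mcm2, Mcm3, Mcm4, Mcm5 and Mcm6) were higher in the Positive fraction and 1, Mcm7, was not called, and the median over the 6 was 1.03 on the log2 scale. Promoters of 5 subunits were in the RefSeq promoter table, which gives 250 bases before to 50 bases after each start in build GRCm38.p6, and 4 of the 5 held letters of the E2F binding motif. These are shown because the subunits are textbook E2F targets and because they include called subunits (Mcm3, Mcm5 and Mcm6) as well as Mcm7. Capitals mark the letters TTTCCCGC, TTTCGCGC, TTTGCCGC or TTTGGCGC on either strand, with overlapping matches joined into 1 run of capitals. The stretches are chr1:20820263-20820562 (minus strand) for Mcm3, chr8:75109259-75109558 (plus) for Mcm5, chr1:128359656-128359955 (minus) for Mcm6 and chr5:138171834-138172133 (minus) for the Mcm7 start that has a match, each read 5′ to 3′ along the gene.
Mcm3: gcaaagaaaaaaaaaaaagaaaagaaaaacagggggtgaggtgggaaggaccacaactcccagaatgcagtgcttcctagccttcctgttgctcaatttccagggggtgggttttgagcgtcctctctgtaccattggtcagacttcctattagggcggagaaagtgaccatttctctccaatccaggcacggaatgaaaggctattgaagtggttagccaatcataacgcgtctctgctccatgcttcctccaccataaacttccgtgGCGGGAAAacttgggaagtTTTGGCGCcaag
Mcm5: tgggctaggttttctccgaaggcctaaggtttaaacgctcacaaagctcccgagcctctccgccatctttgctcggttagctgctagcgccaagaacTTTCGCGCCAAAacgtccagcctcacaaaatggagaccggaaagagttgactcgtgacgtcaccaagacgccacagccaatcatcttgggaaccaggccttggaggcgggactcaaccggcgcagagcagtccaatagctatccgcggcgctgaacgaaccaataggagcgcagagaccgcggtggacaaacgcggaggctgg
Mcm6: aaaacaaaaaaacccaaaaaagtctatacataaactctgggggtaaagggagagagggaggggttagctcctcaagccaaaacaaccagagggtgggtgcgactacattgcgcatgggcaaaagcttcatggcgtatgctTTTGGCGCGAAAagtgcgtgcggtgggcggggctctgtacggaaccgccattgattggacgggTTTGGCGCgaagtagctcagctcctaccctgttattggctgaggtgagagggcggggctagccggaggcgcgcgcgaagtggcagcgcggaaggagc
Mcm7: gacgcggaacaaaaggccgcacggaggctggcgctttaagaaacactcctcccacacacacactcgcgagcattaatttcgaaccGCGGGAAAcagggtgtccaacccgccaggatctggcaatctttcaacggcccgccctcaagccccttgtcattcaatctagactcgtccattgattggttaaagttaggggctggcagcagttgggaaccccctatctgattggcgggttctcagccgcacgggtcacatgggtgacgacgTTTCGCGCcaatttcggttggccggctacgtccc

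Mcm3 has 2 matches, both after its start (bases 19 to 26 and 38 to 45), Mcm5 has 2 that overlap (bases -153 to -142), Mcm6 has 3, of which 2 overlap (bases -110 to -99 and -47 to -40), and Mcm7 has 2 (bases -165 to -158 and 16 to 23). No match was found in the promoter of Mcm2, and Mcm4 is not in the table. Such letters stood in 744 of 32851 promoters (2.26%) and in 480 of the 11018 genes tested that had a promoter (4.36%). Of the 34 members with a promoter 7 held them, the others being Cdk2, E2f3 and Mcm8. Matching letters thus occurred both in subunits that were higher in Positive and in genes that were not called (Mcm7, Mcm8 and E2f3). The letters describe these windows only and do not show that a factor was bound.

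Mcm3 (ENSMUSG00000041859, chromosome 1, 20802968 to 20820312) had 36.6, 39.3 and 25.1 scaled reads in Input and 288, 443.5 and 280.4 in Positive, from 24 to 42 unscaled reads per Input library. Every Positive library was far above every Input library, with a log2 fold change of 3.32 ± 0.24 (9.96-fold, adjusted p = 1.47e-07), which was still below the median of the microglial markers. Mcm5 (ENSMUSG00000005410) had 73.2, 52.9 and 58.1 in Input and 199, 202 and 163 in Positive. The groups did not overlap and the log2 fold change was 1.62 ± 0.19 (adjusted p = 1.69e-05). Mcm2 (ENSMUSG00000002870), with 59.0, 74.9 and 82.5 in Input and 184.7, 160.3 and 180.6 in Positive, was higher by 1.28 ± 0.18 (adjusted p = 9.26e-05), again without overlap.

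Mcm6 was better expressed and more even, with 208, 218 and 228 scaled reads in Input and 385, 366 and 370.3 in Positive. Its log2 fold change was 0.78 ± 0.12 (adjusted p = 1.48e-04), and the SD was 9.71 scaled reads in Input and 10.1 in Positive. Mcm4 had 117, 188 and 155 in Input and 229.9, 249 and 205 in Positive, a log2 fold change of 0.57 ± 0.18 (adjusted p = 0.0195). The Input level of Mcm4 varied more between animals than that of Mcm6, and the call was lost without the Input library of animal 201 (0.41, adjusted p = 0.0748), the Input library of animal 208 (0.58, adjusted p = 0.0532) or the Positive library of animal 207 (0.50, adjusted p = 0.0713). Mcm7 had 252, 244 and 224 in Input and 213, 276 and 211 in Positive. Its fractions overlapped, with a log2 fold change of -0.04 ± 0.15 (adjusted p = 0.833) whose sign was not the same under every alternative. Mcm7 hosts the microRNAs Mir25, Mir93 and Mir106b on its own strand and overlaps Ap4m1 and Cops6 on the other strand. Reads were aligned by strand.

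**Figure D2:**
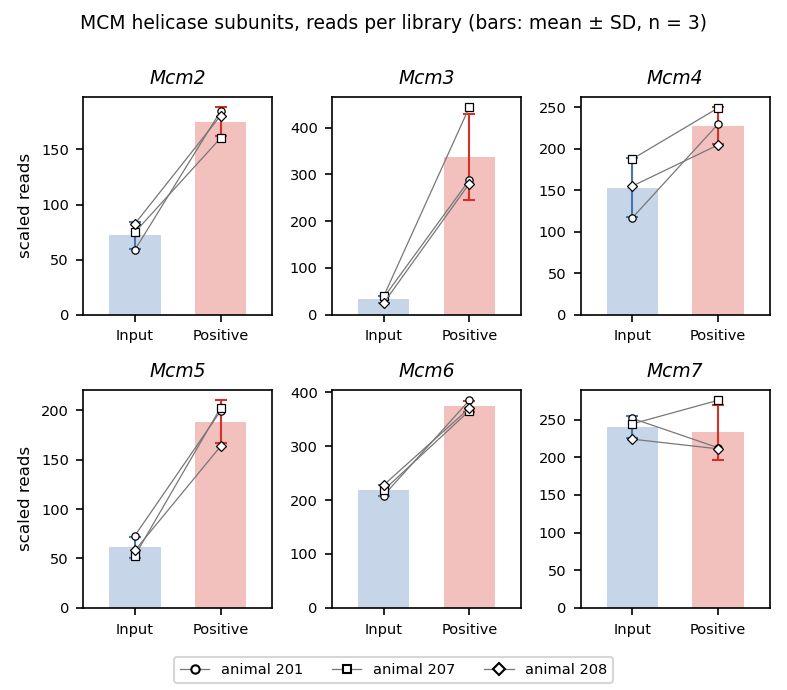
Scaled reads (vertical axis, from 0) of the 6 MCM helicase subunits in the Input and Positive libraries, with bars for the mean ± SD of 3 libraries and lines joining the libraries of 1 animal. All lines go up for Mcm2 to Mcm6, and those of Mcm7 cross.

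The ring takes 1 copy of each subunit, so the levels were also set side by side per kb of exon. For this, scaled reads were divided by the joined length of all annotated exons of the gene. That length ran from 3589 bases for Mcm4 to 6956 for Mcm2 and can exceed the RNA that was read. Orders and shares between genes, here and below, depend on it. In Input the mean level per kb was 54.3 ± 3.23 (SD, n = 3) for Mcm7, 46.7 ± 2.08 for Mcm6, 42.7 ± 9.90 for Mcm4, 15.4 ± 2.63 for Mcm5, 10.4 ± 1.73 for Mcm2 and 8.97 ± 2.02 for Mcm3. Mcm7, Mcm6 and Mcm4 did not all separate beyond their spread, and neither did Mcm2 and Mcm3. In Positive the order was Mcm3 (89.9 ± 24.5), Mcm6 (80.1 ± 2.16), Mcm4 (63.5 ± 6.21), Mcm7 (52.7 ± 8.32), Mcm5 (47.2 ± 5.41) and Mcm2 (25.2 ± 1.88). By these means Mcm3 moved from the lowest place to the highest, but single libraries showed this move only in animal 207. In Positive, Mcm6 took a larger share of the 6 subunits than Mcm3 in animal 201 (23.7% against 22.1%) and animal 208 (24.4% against 22.9%). Mcm3 led only in animal 207 (29.4% against 19.5%). In the Input library of animal 201, Mcm2 (4.97%) was below Mcm3 (5.71%). The spread of Mcm3 in Positive covered the level of Mcm6. Neither Mcm4 and Mcm7 nor Mcm7 and Mcm5 separated beyond their spread. As a share of the 6 subunits, Mcm3 was 3.80% to 5.71% in the Input libraries and 22.1% to 29.4% in the Positive libraries, and Mcm7 was 28.8% to 33.3% and 13.8% to 15.5%. The summed level per kb of the 6 was 178 ± 9.38 in Input and 359 ± 39.2 in Positive. With 3 libraries against 3 an exact test of a share cannot go below p = 0.1, so the shares are given without a test.

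**Figure D3:**
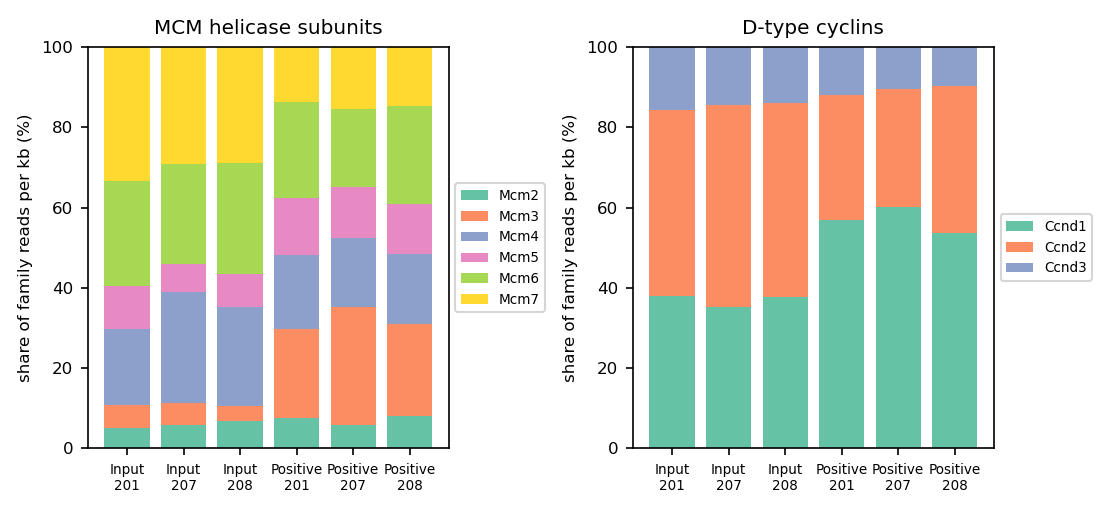
Share of each gene in the summed reads per kb of its family (percent, vertical axis) in each of the 6 libraries, for the MCM helicase subunits on the left and the D-type cyclins on the right. Mcm3 takes 22.1% or more and Ccnd1 53.6% or more in every Positive library, above their shares in every Input library.

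Mcm8 and Mcm9, a separate pair of helicase proteins that act in recombination, were not called. Their log2 fold changes were -0.20 ± 0.23 (adjusted p = 0.494) and -0.28 ± 0.21 (adjusted p = 0.288), and all of their libraries had between 57.9 and 117 scaled reads. Mcm3ap, an RNA export protein, stood at 1021 to 1129 scaled reads in all 6 libraries, with a log2 fold change of 0.01 ± 0.08 (adjusted p = 0.899).

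Among the 3 D-type cyclins, which couple outside signals to entry into the cycle, only Ccnd1 was called. Ccnd1 (ENSMUSG00000070348, chromosome 7, 144929931 to 144939925) had 894, 861 and 907 scaled reads in Input and 1739, 2015 and 1671 in Positive. The fractions were well apart in each animal, with a log2 fold change of 1.03 ± 0.09 (2.04-fold, adjusted p = 8.91e-07). Ccnd2 had 2174, 2472 and 2329 in Input and 1914, 1969 and 2293 in Positive, a log2 fold change of -0.18 ± 0.09 (adjusted p = 0.120), and the Positive library of animal 208 lay among the Input libraries. Without that library Ccnd2 was called lower (-0.26, adjusted p = 0.0134), as it was with animal 208 left out (adjusted p = 0.0470) or with scaling to total reads (-0.25, adjusted p = 0.0301). Ccnd3 had 683, 658 and 625 in Input and 675, 648 and 558 in Positive and was not called (-0.06 ± 0.10, adjusted p = 0.636).

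Per kb of exon, Ccnd2 was the highest of the 3 in Input at 247 ± 15.9 (SD, n = 3), against 188 ± 5.10 for Ccnd1 and 74.7 ± 3.32 for Ccnd3. In Positive Ccnd1 came first at 384 ± 38.7, then Ccnd2 at 219 ± 21.8 and Ccnd3 at 71.5 ± 6.99. Neighbours in both orders were further apart than their SDs. Ccnd1 made up 35.1% to 38.1% of the D-type level in the Input libraries and 53.6% to 60.2% in the Positive libraries.

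All 3 cell cycle CDKs in the table were higher in Positive. Cdk4, a partner of D-type cyclins, had 684, 694 and 686 scaled reads in Input and 916, 885 and 797 in Positive, and its log2 fold change was 0.33 ± 0.09 (adjusted p = 0.00786). Cdk6, the other partner, had 31.5, 54.9 and 92.0 in Input and 108.8, 125.0 and 100.3 in Positive, a log2 fold change of 0.91 ± 0.30 (adjusted p = 0.0253). The Input libraries of Cdk6 were wide apart and in animal 208 the fractions were close. Its call was lost without the Input library of animal 201 (0.60, adjusted p = 0.0856), the Input library of animal 207 (0.85, adjusted p = 0.0825) or the Positive library of animal 207 (0.81, adjusted p = 0.0788) and with limma on the deposited normalized values (1.02, adjusted p = 0.0598), and the log2 fold change was 1.42 with animal 208 left out. Cdk2, the partner of E-type cyclins, had 31.5, 31.8 and 26.8 in Input and 59.5, 63.0 and 67.2 in Positive. It was about as far apart as Ccnd1 at a much lower level, with a log2 fold change of 1.06 ± 0.23 (adjusted p = 0.00245). Per kb of exon Cdk4 made up 95.1% to 96.6% of these 3 kinases in Input and 93.2% to 94.2% in Positive. Cdk2 overlaps Pmel and Cdk4 overlaps Tspan31 on the opposite strand.

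Neither E-type cyclin was called by edgeR, DESeq2 or limma or had an unadjusted p under 0.05. Ccne1 stood at 190.4 to 302 scaled reads across the 6 libraries (log2 fold change -0.00 ± 0.17, adjusted p = 0.994). Ccne2 stood at 35.5 to 54.4 (-0.16 ± 0.26, adjusted p = 0.639), and its ratio was below 0 on the log2 scale in animals 201 and 207 (-0.59 and -0.34) and above 0 in animal 208 (0.48).

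Of the CDK inhibitors, 2 of 3 in the CIP/KIP group were higher in Positive and neither of the 2 INK4 members was called. Cdkn1a (p21, ENSMUSG00000023067, chromosome 17, 29090979 to 29100722), a target of p53 that blocks CDK2, had 139.6, 153.6 and 118 scaled reads in Input and 307, 378 and 235 in Positive. All animals moved alike, and the log2 fold change was 1.16 ± 0.18 (2.24-fold, adjusted p = 2.06e-04). Cdkn1b (p27), the inhibitor of quiescent cells, had 739.9, 677 and 746 in Input and 837, 898 and 843 in Positive, with a small difference of 0.25 ± 0.09 (adjusted p = 0.0286). That call was lost without the Input library of animal 207 (0.21, adjusted p = 0.121), the Input library of animal 208 (0.28, adjusted p = 0.0594) or the Positive library of animal 207 (0.22, adjusted p = 0.0928), with scaling to total reads (0.18, adjusted p = 0.103) and with limma (0.24, adjusted p = 0.0682). Cdkn1c (p57), an imprinted inhibitor, had 298, 274 and 261 in Input and 286, 344 and 226 in Positive and was not called (0.04 ± 0.15, adjusted p = 0.856).

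The INK4 proteins bind CDK4 and CDK6 alone. Cdkn2d (p19Ink4d) had 754, 684 and 721 scaled reads in Input and 681, 714 and 763 in Positive, a log2 fold change of -0.00 ± 0.09 (adjusted p = 0.993). Cdkn2c (p18Ink4c) had 55.9, 29.0 and 31.4 in Input and 42.1, 77.8 and 28.9 in Positive. Only animal 207 was higher in Positive, and the fitted value of 0.37 ± 0.37 was within its error (adjusted p = 0.439). Per kb of exon Cdkn2d had the highest level of the 5 inhibitors in all 6 libraries, 457 ± 22.2 in Input and 457 ± 26.3 in Positive, followed by Cdkn1b (158 ± 8.33 and 189 ± 7.34). Cdkn1a was at 38.6 ± 5.03 and 86.4 ± 20.1.

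**Figure D4:**
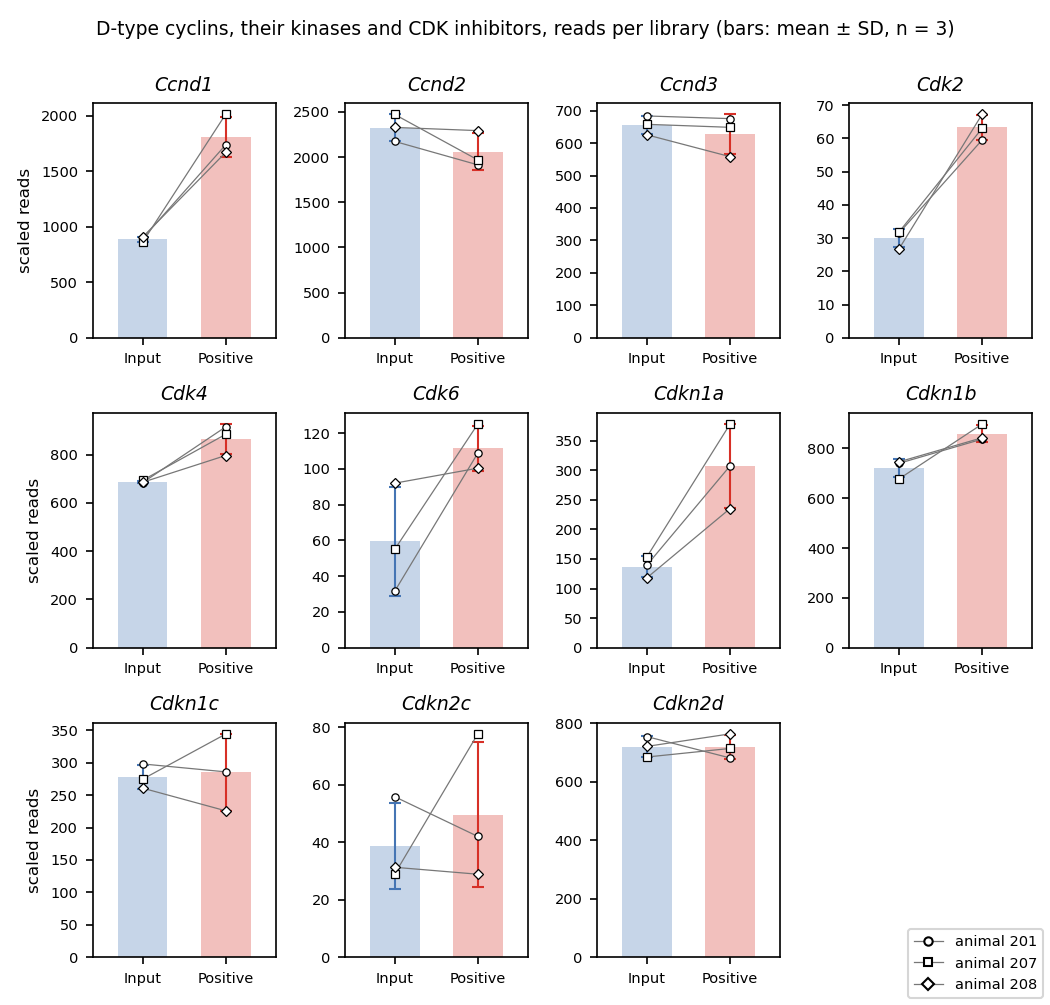
Scaled reads (vertical axes, from 0) of the D-type cyclins, Cdk2, Cdk4, Cdk6 and the CDK inhibitors in Input and Positive, with bars for the mean ± SD of 3 libraries and lines joining the libraries of 1 animal. Ccnd1, Cdk2, Cdk4, Cdk6, Cdkn1a and Cdkn1b are higher in Positive in each of the 3 animals, Cdk6 by little in animal 208, and lines of the other genes run in both directions or slightly down.

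Of the 5 E2F factors, none was higher and 1, E2f6, was lower. The count of higher factors was 0 also at an unadjusted p under 0.05 and by DESeq2 and limma. E2f6, a repressor that works with Polycomb proteins and not through the pocket proteins, had 499, 486 and 543 scaled reads in Input and 340.3, 402 and 334 in Positive, a log2 fold change of -0.50 ± 0.11 (adjusted p = 0.00296). Of the activators, E2f1 had 199, 176 and 199 in Input and 203, 146 and 156 in Positive (-0.18 ± 0.16, adjusted p = 0.377), and E2f3 had 622, 659 and 680.5 in Input and 619.9, 659.0 and 742 in Positive (0.04 ± 0.10, adjusted p = 0.748). Their fractions overlapped. Of the factors that mostly repress together with pocket proteins, E2f4 had 438, 538 and 452 in Input and 475, 525.5 and 494 in Positive (0.06 ± 0.11, adjusted p = 0.668). E2f5 had 124, 122 and 118.5 in Input and 99.5, 104 and 114 in Positive, so that its fractions did not overlap, but it was not called (-0.20 ± 0.17, adjusted p = 0.340).

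Pocket proteins, DP partners and subunits of the MuvB complex form, together with E2F, the repressor complex of quiescent cells. Of 9 such genes, 2 were higher, 1 was lower and 6 were not called (median log2 fold change -0.03). This is a share called of 33.3%, against 46.0% of all genes tested. Rbl1 (p107), the pocket protein most tied to cycling cells, had 21.0, 26.2 and 21.5 scaled reads in Input and 87.2, 118.6 and 84.8 in Positive, a log2 fold change of 2.06 ± 0.25 (adjusted p = 2.37e-05) without overlap. Lin9, a MuvB subunit, was higher by 0.71 ± 0.21 (adjusted p = 0.0145, 0.0579 without the Input library of animal 201). Tfdp2, a DP partner, was lower (-0.33 ± 0.10, adjusted p = 0.0165), a call that was lost without the Input library of animal 207 (adjusted p = 0.0507) or 208 (0.0882), without the Positive library of animal 201 (0.0604) and without animal 208 (0.0742).

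Of 31 other genes of origin licensing and replication listed, 28 were tested, 12 were higher, 1 was lower and 15 were not called, with a median log2 fold change of 0.34. The share called was 46.4%, against 46.0% of all genes tested. By direction, the 12 higher and 1 lower of 28 stand beside 24.0% higher and 22.0% lower among all genes. DESeq2 called 8 higher, since Orc2, Gmnn, Gins3 and Gins4 lost the call (adjusted p = 0.0727, 0.0634, 0.0932 and 0.0537), and Orc2 lost it under 12 of 15 alternatives. Cdt1, which loads the MCM ring onto origins, had 14.2, 16.9 and 10.4 scaled reads in Input and 66.7, 73.8 and 53.5 in Positive (2.21 ± 0.29, adjusted p = 4.31e-05). These Input values rest on 10 to 18 unscaled reads per library, and Cdt1 shares its strand with the overlapping gene model Gm20388. Rrm2, a subunit of ribonucleotide reductase, was higher by 1.21 ± 0.28 (adjusted p = 0.00383), and Rfc3, a subunit of the clamp loader, by 0.84 ± 0.22 (adjusted p = 0.00758). Cdt1, Rrm2 and Dbf4 passed the filter on low reads only through the Positive fraction, and among the 25 genes that passed in both, 10 were higher and 1 was lower with a median of 0.30. The 1 lower gene was Cdc7, the kinase that with Dbf4 activates the loaded MCM ring (-0.70 ± 0.14, adjusted p = 0.00110).

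Mitotic genes were scarce. Of 19 listed, 9 were tested, and of these 3 were higher, 1 was lower and 5 were not called (median 0.05). This is a share called of 44.4%, against 46.0% of all genes tested. Top2a, a topoisomerase of dividing cells, had 14.7, 24.4 and 16.7 scaled reads in Input and 90.3, 116.4 and 62.9 in Positive (2.28 ± 0.31, adjusted p = 6.16e-05). Mki67, which encodes the proliferation marker Ki-67, had 16.3, 5.62 and 21.9 in Input and 42.1, 68.7 and 31.0 in Positive (1.71 ± 0.43, adjusted p = 0.00553). Tpx2, a spindle factor, was higher by 0.81 ± 0.24 (adjusted p = 0.0161, 0.0776 without the Input library of animal 207), and Mybl2, the partner of MuvB in dividing cells, was lower (-1.07 ± 0.34, adjusted p = 0.0217, 0.0694 with DESeq2, and 0.0593 to 0.0719 without the Input library of animal 201 or 207 or the Positive library of animal 208). Top2a, Mki67 and Mybl2 passed the filter only through the fraction in which they were higher, and among the 4 genes that passed in both fractions 1 was higher and 0 were lower by edgeR (0 also at an unadjusted p under 0.05 and by DESeq2 and limma).

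**Figure D5:**
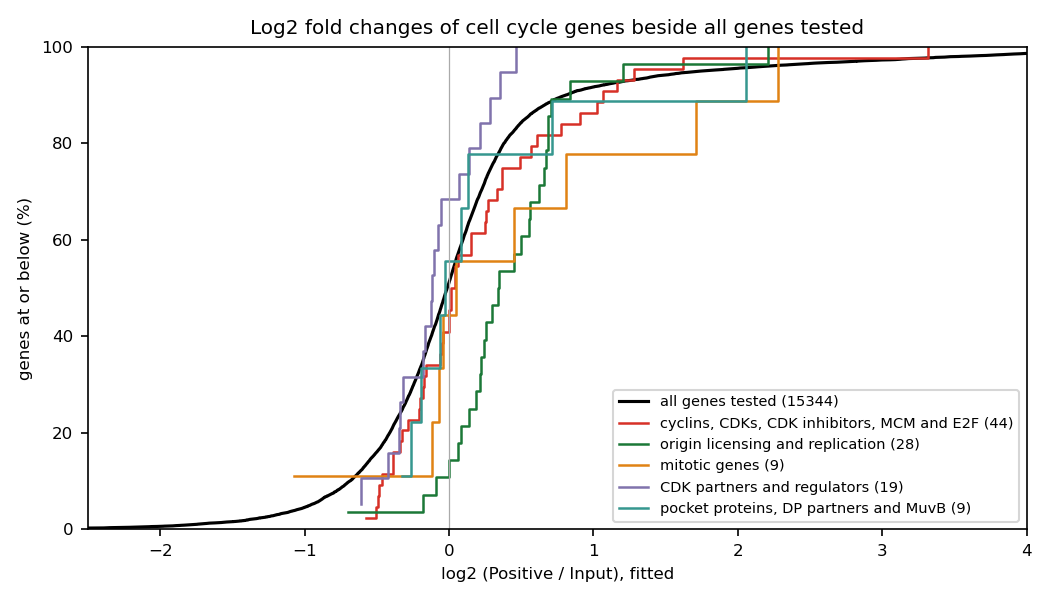
Cumulative percent of genes (vertical axis) at or below each fitted log2 Positive over Input (horizontal axis) for all 15344 genes tested, the 44 cyclin, CDK, inhibitor, MCM and E2F genes and the 4 lists of pathway genes. The curve of the 44 genes runs near that of all genes through the middle, where its median is 0.03 against -0.01, and the replication curve lies to the right with a median of 0.34.

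Cyclins and CDKs with tasks outside the cycle moved in both directions. Of the G- and L-type cyclins 3 of 4 were lower. Ccnl1, a cyclin of RNA splicing, had 636, 625 and 618 scaled reads in Input and 482, 459 and 316 in Positive, a log2 fold change of -0.58 ± 0.14 (adjusted p = 0.00429), and its paralog Ccnl2 gave -0.50 ± 0.11 (adjusted p = 0.00216). Both were lowest in the Positive library of animal 208, at 316 and 1135 scaled reads. Ccng1, a p53 target like Cdkn1a, had 947, 912 and 1011.5 in Input and 746, 736 and 709 in Positive (-0.39 ± 0.08, adjusted p = 0.00214). These p53 targets thus lay on opposite sides of 0. Ccng2 was not called (0.25 ± 0.11, adjusted p = 0.0826), but was called higher with the animal as a block (0.25, adjusted p = 0.0230) and without the Positive library of animal 201 (0.32, adjusted p = 0.0435).

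Of the 6 CDKs of transcription, 3 were higher, 1 was lower and 2 were not called. Cdk13 and Cdk12, which phosphorylate RNA polymerase II during elongation, were both higher: Cdk13 had 629, 624 and 591 scaled reads in Input and 1014.5, 1018 and 786 in Positive (0.61 ± 0.11, adjusted p = 5.00e-04), and Cdk12 gave 0.49 ± 0.12 (adjusted p = 0.00626). The Mediator kinases, which are close paralogs, went apart. Cdk19 was higher by 0.37 ± 0.08 (adjusted p = 0.00214) and Cdk8, with 465, 458 and 528 in Input and 339, 376 and 395 in Positive, was lower (-0.39 ± 0.11, adjusted p = 0.0131), a call lost without the Input library of animal 208 (-0.32, adjusted p = 0.0740). Per kb of exon Cdk19 was at 180.2 ± 11.5 in Input and 233 ± 1.95 in Positive and Cdk8 at 49.2 ± 3.96 and 37.6 ± 2.92. Cdk7, the CDK-activating kinase, and Cdk9, the kinase of P-TEFb, were not called (0.27 ± 0.14 and 0.15 ± 0.08, adjusted p = 0.144 and 0.126), though Cdk9 was called higher without the Positive library of animal 208 (0.20, adjusted p = 0.0418).

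Of the 7 remaining CDKs 3 were lower and none was higher by edgeR, DESeq2 or limma or at an unadjusted p under 0.05. Cdk16, a kinase of the PCTAIRE family that is abundant in neurons, had 3455, 3448.5 and 3372 scaled reads in Input and 2493, 2429.6 and 2524 in Positive, a tight difference of -0.46 ± 0.07 (adjusted p = 1.55e-04). Cdk5, the neuronal kinase activated by p35 and p39, had 1706, 1921 and 1929 in Input and 1489, 1555 and 1397 in Positive (-0.32 ± 0.08, adjusted p = 0.00603), and the call was lost with animal 208 left out (-0.25, adjusted p = 0.0553). Cdk10 was called (-0.34 ± 0.12, adjusted p = 0.0328) although its fractions overlapped, since the Positive library of animal 201 lay above the lowest Input library. It lost the call under 6 of 15 alternatives, those without the Input library of animal 201 or 207, the Positive library of animal 207 or 208, or animal 208 and that with limma, with log2 fold changes of -0.37 to -0.22 and adjusted p of 0.0727 to 0.0993. It shares its strand with 2 overlapping gene models, Gm20388 and Gm45842.

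Cdk18 had a log2 ratio of -0.52, -0.45 and -0.47 in the 3 animals but differed between animals within each fraction, and was not called in the unpaired test (-0.49 ± 0.20, adjusted p = 0.0626). With the animal as a block it was called lower (-0.48, adjusted p = 0.00381), and it was also called with scaling to total reads (adjusted p = 0.0358), the authors' size factors (0.0476) or DESeq2 (0.0389) and without the Input library of animal 207 (0.0378) or the Positive library of animal 201 (0.0123). Cdk14, Cdk17 and Cdk20 were not called, with log2 fold changes of -0.05 ± 0.10, 0.16 ± 0.09 and 0.01 ± 0.16 (adjusted p = 0.725, 0.153 and 0.954). Beside Cdk5 and Cdk16, the neuronal markers had a median log2 fold change of 0.16. Of these 8 markers, 0 were lower by edgeR, DESeq2 or limma or at an unadjusted p under 0.05. The oligodendrocyte and oligodendrocyte precursor markers had medians of -2.44 and -1.45. Which cells the reads of Cdk5 and Cdk16 came from was not tested.

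Of 22 partners and regulators of the CDKs listed, 19 were tested, 1 was higher, 5 were lower and 13 were not called, with a median log2 fold change of -0.12. The share called was 31.6%, below the 46.0% of all genes tested. The higher gene was Fzr1 (Cdh1), which directs the anaphase-promoting complex in G1 and in resting cells (0.47 ± 0.09, adjusted p = 7.21e-04). The lowest of the called genes were Ccnt2, a cyclin of P-TEFb (-0.61 ± 0.10, adjusted p = 1.88e-04), Ccni (-0.42 ± 0.08, adjusted p = 0.00116) and Ccny, a membrane-bound partner of CDK14 and CDK16 (-0.35 ± 0.08, adjusted p = 0.00278). Cdk5r2 and Cdc25b were also lower, but lost the call under 4 and 6 of 15 alternatives. Skp2, a ubiquitin ligase subunit that marks p27 for degradation, was level with Ccnt2 but not called (-0.61 ± 0.24, adjusted p = 0.0523). It was called lower under 5 of 14 alternatives, among them edgeR with the animal as a block (adjusted p = 0.027). Counted as fractions that do not overlap, 22 of the 44 genes (50.0%) separated, 14 with all Positive above all Input libraries and 8 below, against 56.5% of all genes (29.0% above and 27.6% below). These 22 were the called genes with E2f5 in place of Cdk10.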

How the data were processed

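Hippocampal Input and Positive RNA of 3 animals was analysed as 6 libraries, grouped by the titles and fraction labels of the samples. Libraries were directional and poly(A)-selected. The authors trimmed reads, aligned them by strand to mm10 in Strand NGS, and deposited expected counts per gene (raw reads, not always whole). Its header states a cut-off of 20 raw reads, to be reached by all libraries of 1 fraction or both, so genes below that limit cannot be described. The authors also deposited normalized values on a log2 scale, made with DESeq size factors and centred on the Input median of each gene, which entered as the limma alternative and as size factors recovered to within 3.28e-07. How mates of a pair were counted is not given in the sources used here, so intervals cover the spread between libraries only.

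For the test, rounded expected counts were fitted with edgeR 4.0.16 (glmQLFit, glmQLFTest) in R 4.3.3, unpaired, with median-of-ratios (RLE) scaling. Scaled reads had to exceed 20 in all 3 libraries of a fraction, which kept 15344 genes and dropped 44, and the Benjamini-Hochberg adjustment ran over the 15344. The standard error was derived from the F statistic, and ratios per animal used a pseudocount of 1. The scripts were tested on simulated data. Same-numbered libraries came from 1 animal per the labels and are therefore paired. Deviations from the fraction means correlated at 0.19, 0.06 and 0.12 within animals 201, 207 and 208. Alternatives were TMM, total-count and the authors' scaling, no filter, a filter of 100 scaled reads, DESeq2 1.42.0, limma 3.58.1 on the deposited log2 values, the animal as a block, each library left out, and animal 208 left out. No per-sample column was left unmapped.

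The rule that picks the genes uses symbols only, but the families it covers and the other lists were chosen with earlier results of these data known. Values in every library were given by rule for the D-type cyclins, cell cycle CDKs, CDK inhibitors, MCM helicase subunits and E2F factors, and for the called genes of largest and smallest log2 fold change in each other role. Of each pathway list up to 3 highest and 3 lowest called genes were named. Other values given in every library were chosen after they were seen. Promoters come from RefSeq (GRCm38.p6). Only those of MCM subunits with E2F letters are printed, and Mcm7 was added for comparison. Exon lengths come from the GENCODE annotation of the same build.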

Additional observations from a re-analysis of the deposited data

How the results depend on the processing

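Of the 22 called genes, 16 kept their call under all 15 alternatives and 6 lost it under at least 1 (Cdk5, Cdk6, Cdk8, Cdk10, Cdkn1b and Mcm4). Of the 22 not called, 18 were called under no alternative and 4 under at least 1 (Ccnd2, Ccng2, Cdk9 and Cdk18). No called gene changed sign. With 1 library or animal 208 left out, the genes called numbered 18 to 24, those higher 11 to 15, those lower 7 to 9, those also past a 25% difference 17 to 21 (21 with all libraries), and the median log2 fold change was 0.02 to 0.04. With the animal as a replicate block 24 were called, Ccng2 and Cdk18 in addition, and no other call among the 44 genes changed. The block gave 4 called pocket protein, DP and MuvB genes, 15 origin licensing and replication genes, 4 mitotic genes and 8 CDK partners and regulators.

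With scaling to total reads the median of the 44 genes was -0.05 and that of all genes also fell, 2 D-type cyclins were called instead of 1, and 1 CIP/KIP inhibitor instead of 2. Limma also called 1 CIP/KIP inhibitor. Leaving out 1 library or animal 208 gave 1 to 2 D-type cyclins, 1 to 4 of the 7 other CDKs, 1 to 2 CIP/KIP inhibitors and 2 to 5 mitotic genes. The D-type count was 2 without the Positive library of animal 208 or without animal 208, the other CDKs were 1 without animal 208, and the mitotic genes were 2 without the Input library of animal 207. With a filter of 100 scaled reads 5 of the 44 genes were not tested, 7 of 16 origin licensing and replication genes were called, and the mitotic list gave no value because none of its genes was left. The cause of the other changes was not tested.

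Low depth limits Ccne2, Cdk2, Cdk6, Cdkn2c, Mcm3 and Mcm5, whose Input means were the lowest of the 44 genes, at most 61.4 scaled reads. Genes under the depositors' limit, such as most mitotic genes, were not analysed here.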

Other observations

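The same letters were looked at over all genes tested that had a promoter in the RefSeq table, as a description with no test. Of the 480 with E2F letters 27.1% were higher and 17.1% lower in Positive, against 25.2% and 21.0% of those without. The letters AGGAAGT on either strand, as bound by PU.1, the factor that defines the macrophage lineage, stood in 9.35% of promoters. Of the 1103 genes tested that held them 37.0% were higher and 15.4% lower, against 24.0% and 21.4% of those without. Among the 34 members with a promoter, 2 held them, Ccnd3 and Mcm3. In Mcm3 they stand at bases -108 to -102 from the start, on the strand opposite to the gene. The letters TTTGAA or TTCGAA, known as the cell cycle genes homology region, stood in 19.2% of promoters and in 4 members (Cdk16, E2f3, Mcm2 and Mcm7).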
